A study of Mus musculus with 12 samples.

Results

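The mRNAs of 55 Rab GTPases were followed in cultured mouse sensory neurons, in their neurites and their cell bodies, with and without a change in 1 copy of the gene for nucleolin. The members were all genes whose symbol is Rab, a number and at most 1 letter, except Rab13, out of 17915 gene names in both compartment tables together. All 55 were named in both tables and all 55 passed the filter on low counts. Rab symbols are those of the files, so Rab1 is the gene often written Rab1a, and Rab7, Rab9 and Rab39 are the genes often written with an a.

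Rab proteins are small GTPases that mark the membranes of the secretory and endocytic pathways. In the GTP-bound form they recruit effectors, among them motors, tethers and fusion factors, and so direct vesicles to the right membrane. Guanine nucleotide exchange factors load them with GTP, GTPase-activating proteins switch them off, and carrier proteins keep the inactive form soluble. Membrane attachment needs lipids that are added to cysteines at the end of the protein. In neurons, Rabs work in axonal transport of endosomes, in the supply of membrane to growing tips and in the release of synaptic and dense-core vesicles.

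The cultures were made from dorsal root ganglia (DRG) of adult C57B6 mice, 1 mouse per culture, and were grown for 3 days on inserts with pores, through which neurites pass while the cell bodies stay above. There were 3 libraries each of GAR+/- neurites (het), GAR+/+ neurites (WT), GAR+/- soma and GAR+/+ soma, and no other allele or agent is named in the labels. GAR names a stretch of nucleolin, an RNA-binding protein, that is rich in glycine and arginine, and the series concerned where RNAs go in axons with less of this protein. The labels name 3 independent biological repeats and do not say which neurite and soma libraries came from the same culture.

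Shown here are the ends of the coding sequences of Rab genes that the results turn on and of Rab8a, because the lipid-bearing cysteines lie there. Rab27b, another gene that the results turn on, is not shown. Each line gives the last 9 codons and the stop codon of a GENCODE M21 transcript (GRCm38), with cysteine codons of the last 4 codons in capitals. The genes lie at chr17:65651729-65772752 (Rab31, minus strand), chr1:131688695-131715439 (Rab7b, plus), chr2:35180205-35201120 (Rab14, minus), chr13:110054187-110280996 (Rab3c, minus), chrX:136858147-136868755 (Rab9b, minus), chr7:27168424-27178896 (Rab4b, minus), chrX:48519285-48530232 (Rab33a, plus) and chr8:72161200-72183904 (Rab8a, plus).
Rab31: agcttgcaagccagccgtcggTGCTGCtga
Rab7b: ccaggccagccaaagagcagaTGCTGCtga
Rab14: caaccccagagagaaggcTGTggcTGCtag
Rab3c: cctccaccacagcccaacTGTggcTGCtaa
Rab9b: ggctccaaagcaagttcttctTGTTGTtag
Rab4b: gccgtggcccctcagcccTGTggcTGCtga
Rab33a: gctaacggtaaagcctccTGTcctTGTtga
Rab8a: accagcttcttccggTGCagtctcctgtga

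All 55 Rab coding sequences had a cysteine codon (TGT or TGC) among the last 4, against 9.0% of the 13577 tested protein-coding genes with a complete coding sequence. In 42 Rab genes there were 2 or more, as in the first 7 lines. In the other 13 there was 1, the fourth from the end, as in Rab8a. Between related Rabs, the coding sequences were 61.0% (Rab7 and Rab7b) to 78.4% (Rab6a and Rab6b) identical.

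Libraries held 14965973 to 32434916 counts, and the Rab genes took 0.587% to 0.792% of them. Nucleolin mRNA (Ncl) averaged 380 ± 46.9 CPM in het neurites against 400 ± 72.1 CPM in WT neurites (SD, n = 3 each). In soma it averaged 266 ± 21.1 CPM in het and 231 ± 12.1 CPM in WT. CPM are counts scaled to a common library total. Counts over the whole gene do not show the state of its GAR domain, so they are no check of the genotype labels. Of 15 markers of neurons, 8 were lower in neurites than in soma by edgeR's quasi-likelihood test and none was higher, and their summed level was 10884 to 16372 CPM in the neurite libraries, against 14759 to 19483 CPM in the soma libraries. Of 11 markers of satellite glia, 5 were higher in neurites and none was lower. Their summed level was 1616 to 2189 CPM in neurites and 1462 to 1961 CPM in soma. Among other lists, 3 of 11 Schwann cell markers were higher in neurites and 1 was lower, and 1 of 6 macrophage markers and 1 of 9 fibroblast markers were lower. None of 7 markers of endothelial and mural cells and none of 8 of proliferation passed. Of 6 nuclear RNAs 2 were lower in neurites, with sums of 4855 to 10184 CPM in neurites and 8117 to 10693 CPM in soma. No marker list was at 0 in the neurite libraries. In bulk libraries, fewer cells of a type and less RNA per cell cannot be told apart. The part of these markers in the Rab results was not tested.

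**Figure D1:**
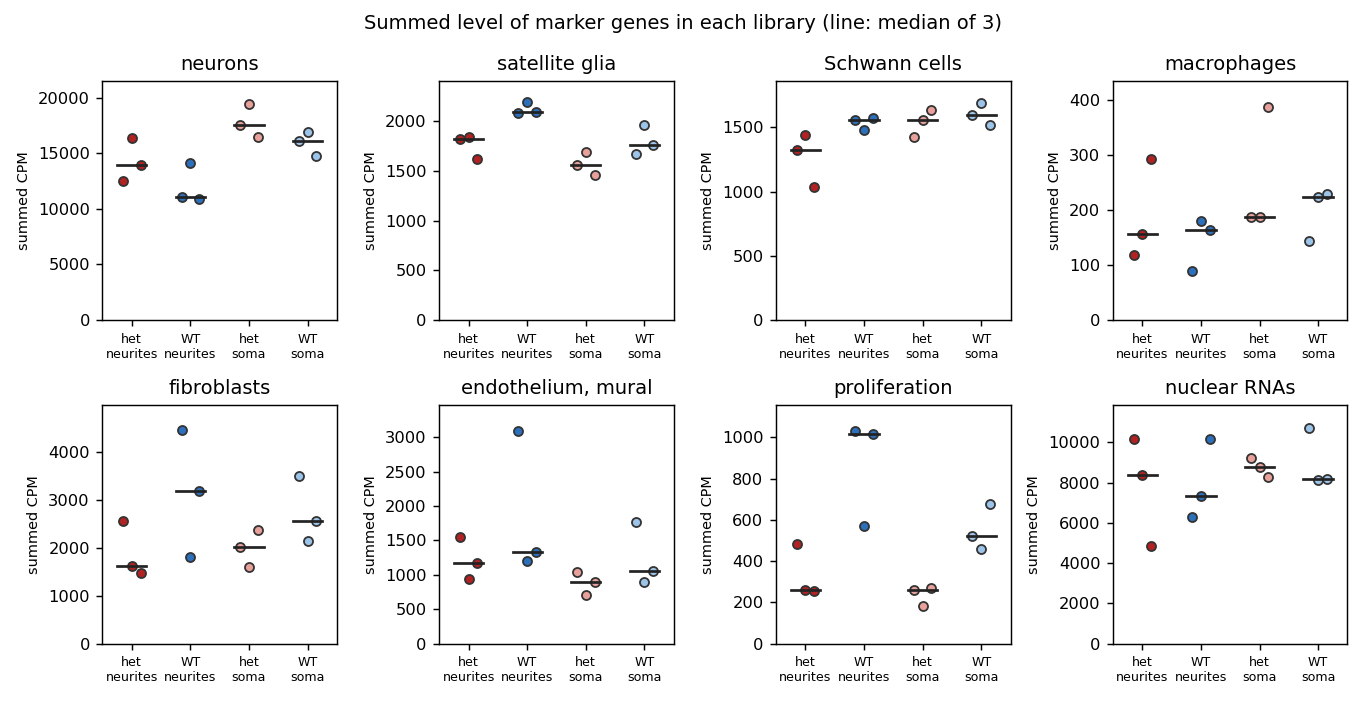
Summed level (CPM, vertical axis from 0) of 8 lists of marker genes in each library, for het neurites, WT neurites, het soma and WT soma. Points are libraries and lines are medians of 3. Neuron markers summed to 10884 to 16372 CPM in neurites and 14759 to 19483 CPM in soma, and proliferation markers to 255 to 485 CPM in het neurites and 571 to 1030 CPM in WT neurites.

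Most Rab mRNAs were present in both compartments in nearly the same proportions. Across the 55 genes, the log2 CPM in neurites and in soma correlated with Pearson's r = 0.997, a description across genes. The mean level reached 100 CPM in 17 genes and stayed under 1 CPM in both compartments in 3, Rab26, Rab42 and Rab44. Per kilobase of exon, the highest levels belonged to Rab2a, which serves transport between the endoplasmic reticulum (ER) and the Golgi, and to Rab6b, the neuronal form of the Golgi Rab6. Rab2a had 281 CPM per kb in neurites and 264 in soma, and Rab6b had 219 CPM per kb in neurites and 246 in soma. In het soma the libraries of these neighbours overlapped, with 273 ± 21.4 CPM per kb for Rab2a and 264 ± 21.3 for Rab6b (SD, n = 3). In WT soma they did not, with 256 ± 1.01 CPM per kb for Rab2a and 228 ± 20.7 for Rab6b.

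Next in the order per kilobase came Rab10, which works in delivery of membrane to the cell surface. Then came Rab1b of the ER-to-Golgi step, Rab15 of endocytic recycling and Rab5b of early endosomes. This order is that of means over both genotypes, in both compartments. After Rab10 it differed between groups. In het soma Rab15 had 124 ± 14.5 CPM per kb and Rab1b 117 ± 7.74. In WT neurites Rab31 had 105 ± 6.93, Rab1b 102 ± 12.5 and Rab15 90.7 ± 31.3 (SD, n = 3 each). Rab10 had 175 CPM per kb in neurites and 160 in soma, and Rab5b had 92.6 in neurites and 99.0 in soma. How reads shared by several transcripts were counted bears on these levels and is not given in the sources used here. Over all protein-coding genes, the median level in soma was 1.60 CPM per kb for genes with 7 or more annotated transcripts and 4.85 CPM per kb for those with 1. For the Rab genes of these classes it was 1.64 CPM per kb with 7 or more and 26.4 CPM per kb with 1. In 3 Rab genes, Rab12, Rab14 and Rab23, no counted transcript was a coding one, and in 40 all counts were in coding transcripts. A counted coding transcript need not be the one with the longest complete coding sequence. For Rab7, Rab3a and Rab27b, among others, that one was not counted. Levels and changes of such genes are those of the counted transcripts only.

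Averaged over both genotypes, 7 of 55 Rab mRNAs differed between neurites and soma. Rab31, Rab7b and Rab14 were higher in neurites, and Rab27b, Rab3c, Rab9b and Rab4b were lower. This is 12.7% of the Rab genes, close to the 12.2% of all 15990 genes tested that passed in the same comparison, 7.33% higher and 4.87% lower. The changes were small: all 55 log2 fold changes lay between −0.77 (Rab44) and 0.55 (Rab7b), with a median of 0.01, against −0.003 over all genes. Rab13, which the member rule left out, was 2.70-fold higher in neurites, a larger change than that of any of the 55.

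**Figure D2:**
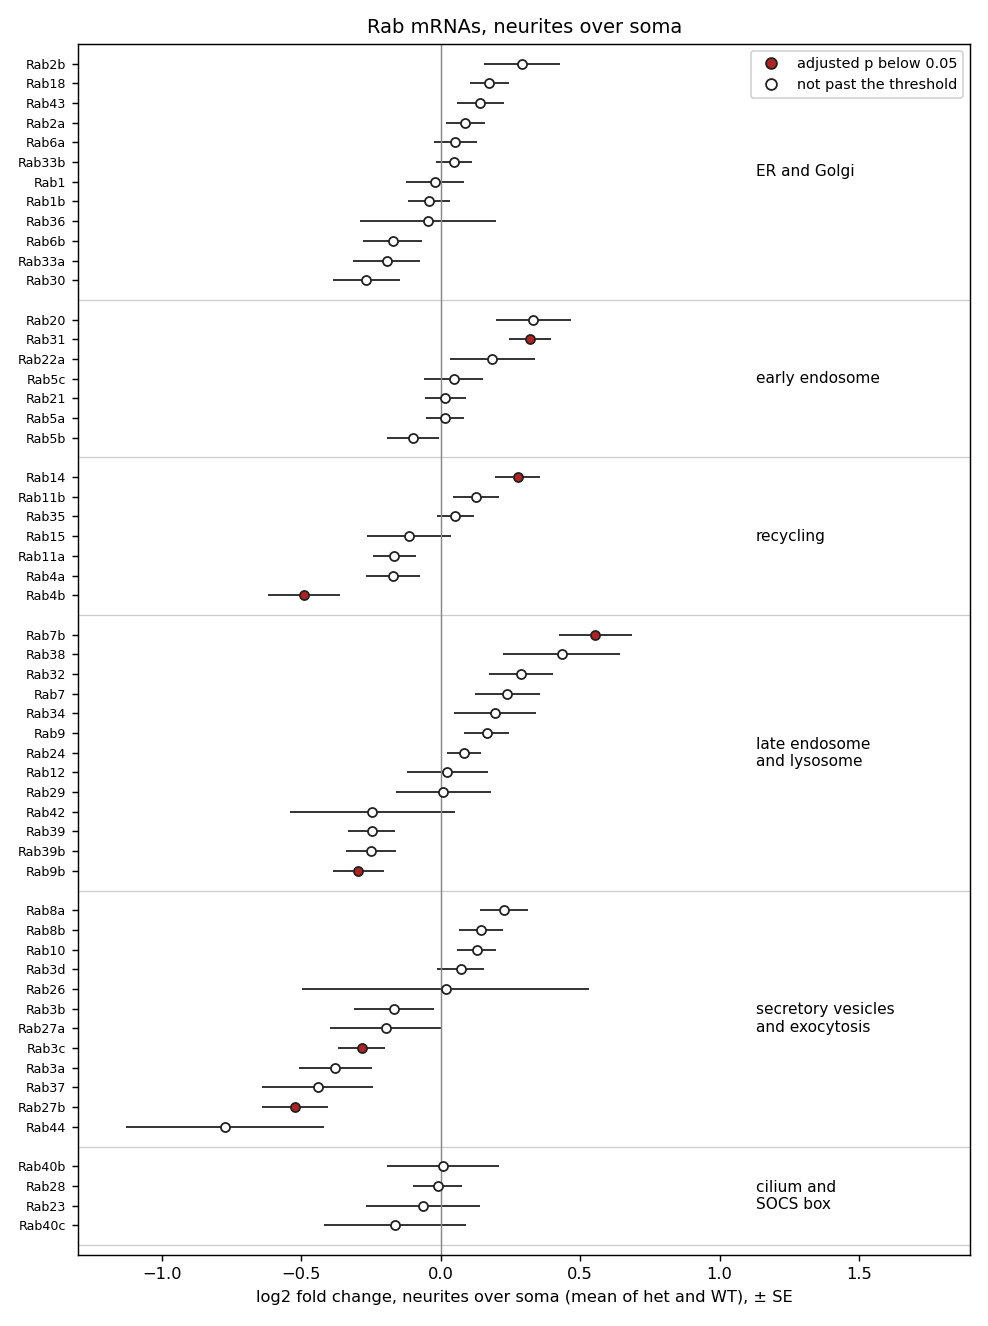
Log2 fold change of each of the 55 Rab mRNAs, neurites over soma, averaged over het and WT (points) with its standard error (bars), grouped by the membrane step the protein serves. Filled points passed an adjusted p of 0.05 over all 15990 genes. Most points lie within 0.3 of 0, and the 7 that passed stand on both sides.

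The early endosome group had 1 of 7 members past the threshold, higher in neurites. Rab31, a relative of Rab22a that acts between endosomes and the trans-Golgi network, had 293, 266 and 308 CPM in het neurites, against 255, 228 and 206 CPM in het soma. It had 429, 392 and 378 CPM in WT neurites, against 323, 298 and 349 CPM in WT soma. In both genotypes every neurite library was above every soma library. Rab31 rose by 0.32 ± 0.07 (SE) on the log2 scale, 1.25-fold, with an adjusted p of 0.0124 by edgeR's quasi-likelihood test with Benjamini-Hochberg adjustment, the test used for all Rab calls below. Its closest relative Rab22a had a log2 change of 0.18 ± 0.15 and did not pass. Rab20, known from maturing phagosomes, had 0.33 ± 0.13 with an adjusted p of 0.120. The 3 forms of Rab5, which builds early endosomes, had log2 changes of 0.01 (Rab5a), −0.10 (Rab5b) and 0.05 (Rab5c), and none passed.

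In the recycling group, 1 of 7 members was higher in neurites and 1 was lower. Rab14, which acts between the Golgi and endosomes, had 33.2, 28.0 and 26.2 CPM in het neurites and 29.7, 29.2 and 27.8 CPM in WT neurites. It had 24.8, 21.0 and 25.2 CPM in het soma and 25.1, 23.2 and 24.5 CPM in WT soma. All 6 neurite libraries were above all 6 soma libraries. The log2 change was 0.28 ± 0.08 (adjusted p = 0.0392, edgeR). Of its counted transcripts a retained-intron one passed alone, at 0.34 ± 0.09 (adjusted p over transcripts = 0.0250), and none was coding, so the change is not one of measured coding mRNA. In the same fit per transcript, 1 transcript each of Rab31, Rab7b and Rab27b passed too, beside 7.14% of all transcripts.

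Rab4b, the second form of the fast recycling Rab4, had 2.60, 3.07 and 2.76 CPM in het neurites and 1.96, 2.15 and 2.41 CPM in WT neurites. It had 3.62, 3.50 and 3.62 CPM in het soma and 3.38, 3.25 and 3.61 CPM in WT soma. Here, too, no neurite library overlapped a soma library. Rab4b fell by 0.49 ± 0.13 on the log2 scale, 1.41-fold (adjusted p = 0.0225, edgeR). Coding transcripts held 20.1% of its counts, and none of its transcripts passed alone. Rab4a had −0.17 ± 0.10, and the slow recycling Rab11a had −0.17 ± 0.08 and Rab11b 0.13 ± 0.08, none past the threshold.

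The late endosome and lysosome group had 1 of 13 members higher and 1 lower in neurites. Rab7b, which directs endosomes to the trans-Golgi network, had 13.6, 10.4 and 18.1 CPM in het neurites, against 8.60, 9.71 and 11.4 CPM in het soma. It had 21.5, 19.2 and 20.8 CPM in WT neurites, against 11.8, 12.7 and 16.2 CPM in WT soma. The compartments overlapped in het and did not in WT. Rab7b rose by 0.55 ± 0.13 on the log2 scale, 1.47-fold (adjusted p = 0.0137, edgeR). Rab7, the main Rab of late endosomes and their retrograde transport, had 0.24 ± 0.12 and did not pass (adjusted p = 0.200). Of its 7 annotated transcripts 2 were counted.

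Rab9b, a form of the Rab9 that returns receptors from late endosomes to the Golgi, had 57.3, 67.5 and 74.6 CPM in het neurites, against 86.0, 78.2 and 70.9 CPM in het soma. It had 51.6, 61.7 and 46.4 CPM in WT neurites, against 69.2, 73.6 and 61.0 CPM in WT soma. The compartments overlapped by 1 library on each side in both genotypes. Rab9b fell by 0.30 ± 0.09 on the log2 scale (adjusted p = 0.0451, edgeR), and with DESeq2's size factors the call was lost (adjusted p = 0.0520). Rab9 had a log2 change of 0.16 ± 0.08, which did not pass. Rab38, a Rab of lysosome-related organelles, had 0.43 ± 0.21 and its relative Rab32 0.29 ± 0.11, and Rab39 and Rab39b each had −0.25, none past the threshold.

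Rabs of secretory vesicles and exocytosis had the lowest median of the groups, −0.18 on the log2 scale, with 2 of 12 members lower in neurites and none higher. Log2 changes were positive in 5 of the 12. On the lower side, Rab44 (−0.77), Rab37 (−0.44) and Rab27a (−0.20) had low mean levels in soma, 0.49, 3.16 and 1.46 CPM. Rab27b, which docks secretory vesicles at the plasma membrane, had 21.0, 20.3 and 27.2 CPM in het neurites, against 30.2, 32.5 and 27.6 CPM in het soma. It had 22.0, 15.6 and 13.7 CPM in WT neurites, against 30.3, 25.8 and 23.7 CPM in WT soma. Within each genotype all neurite libraries were below all soma libraries. Rab27b fell by 0.52 ± 0.12 on the log2 scale, 1.44-fold (adjusted p = 0.0115, edgeR).

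Rab3c, 1 of the 4 Rab3 forms on synaptic and secretory vesicles, was the most counted of the 7. It had 585, 618 and 572 CPM in het neurites, against 676, 717 and 633 CPM in het soma, and 409, 526 and 379 CPM in WT neurites, against 528, 616 and 563 CPM in WT soma. The compartments did not overlap within a genotype, with the highest WT neurite library just under the lowest WT soma library. Rab3c fell by 0.28 ± 0.08 on the log2 scale, 1.22-fold (adjusted p = 0.0382, edgeR). Rab3a had −0.38 ± 0.13 (adjusted p = 0.0733), Rab3b −0.17 ± 0.14 and Rab3d 0.07 ± 0.08, none past the threshold. Rab8a, Rab8b and Rab10, which carry membrane to the cell surface, had 0.23, 0.14 and 0.13, and none of them passed. In the same comparison the neuron markers had a median log2 change of −0.35 and the satellite glia markers of 0.43.

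**Figure D3:**
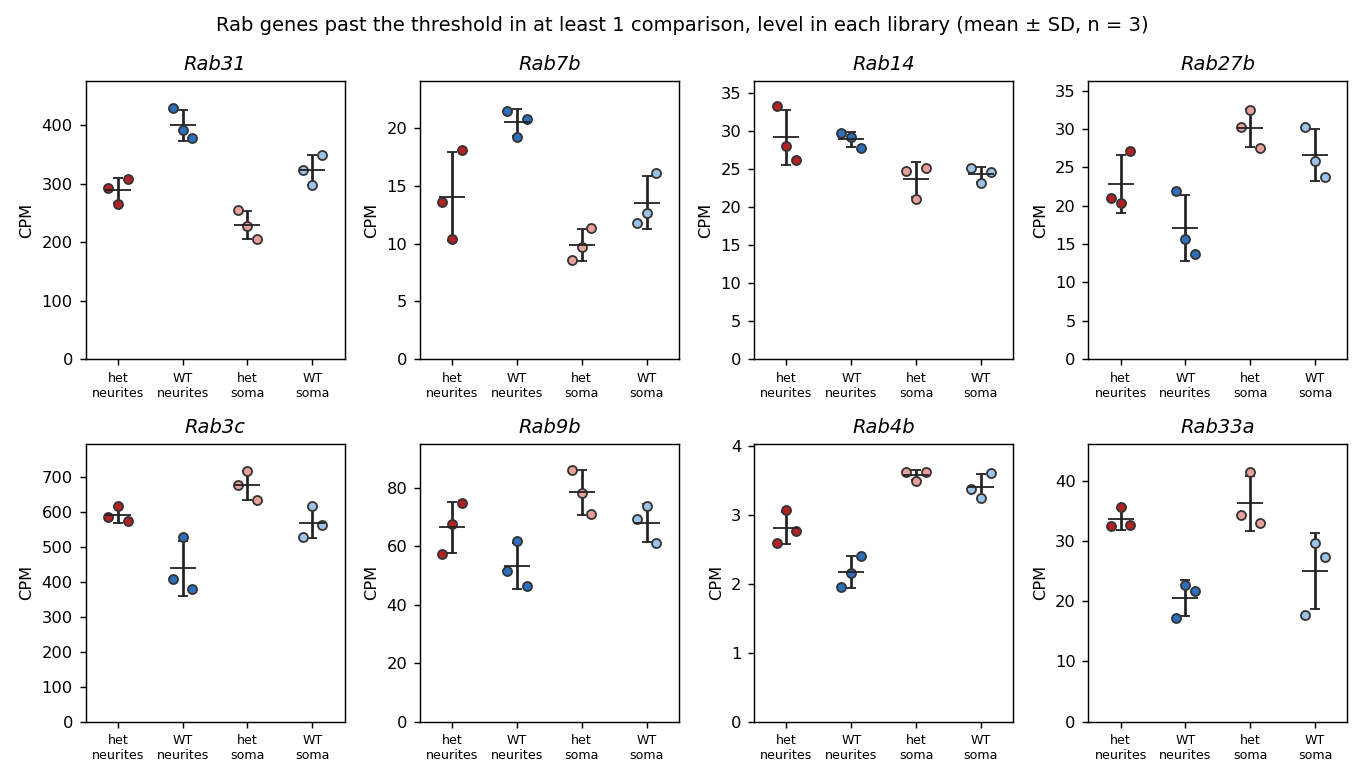
Level (CPM, vertical axes from 0) in each library of the 8 Rab genes past the threshold in at least 1 comparison. Points are libraries, and bars are the mean ± SD of 3. Rab31 and Rab7b are highest in WT neurites, Rab27b and Rab3c highest in het soma, and Rab33a is higher in het than in WT in both compartments.

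None of the 12 Rabs of the ER and Golgi passed, with a median log2 change of 0.01. The lowest was Rab30, a Golgi Rab, at −0.27 ± 0.12 (adjusted p = 0.162), and the highest Rab2b at 0.29 ± 0.14. Rab1, Rab1b and Rab2a, which serve the step between ER and Golgi, had log2 changes of −0.02, −0.04 and 0.09. None of the 4 members in the group of Rab23, Rab28, Rab40b and Rab40c passed either. Rab23 and Rab28 are known from cilia, and the Rab40 proteins carry a SOCS box that binds ubiquitin ligases.

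The calls depended on single libraries in several genes. Rab31, Rab7b and Rab27b passed in each of the 12 fits that left out 1 library. Rab4b passed in 9, Rab3c in 4, and Rab14 and Rab9b in 3 each. Without het neurites 1 or het soma 2 the count of Rab genes past the threshold was 3. It was 4 without WT neurites 1, WT neurites 3, het soma 1, WT soma 2 or WT soma 3, and 11 without WT neurites 2. The share of all genes that passed in these fits is not given here.

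Within a genotype, no Rab gene passed in either by edgeR. In het, 0 of 55 passed beside 0.638% of all genes, and 6 had an unadjusted p under 0.05, beside 14.4% of all genes. DESeq2 and limma voom called 0 Rab genes there, beside 488 and 114 of all 15990 genes. In WT, 0 of 55 passed beside 3.1% of all genes, and 11 had an unadjusted p under 0.05, beside 19.6% of all genes. DESeq2 called 3 and voom called 1 there, beside 1108 and 508 of all genes. In WT, neurite and soma libraries with the same number deviated together, and with that number as a block within each genotype 4 Rab genes passed, beside 9.31% of all genes. These were Rab7b, higher in neurites with a log2 change of 0.60 ± 0.15 (SE), and Rab27b, Rab3c and Rab39b, lower with −0.66 ± 0.14, −0.39 ± 0.10 and −0.35 ± 0.10. Between het and WT, which share no library, 44 of 55 Rab genes (80%) had log2 changes of the same sign, against 74.1% of all genes.

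No Rab gene passed the test of whether its neurite-to-soma change differed between the genotypes. This interaction, the het change minus the WT change, passed in 0 of 55 Rab genes and in 0% of all genes by edgeR. At an unadjusted p under 0.05 it held 0 Rab genes and 202 of all genes, and DESeq2 and voom called 0 of either. The smallest p belonged to Rab27a, the second form of Rab27, at 0.76 ± 0.40 on the log2 scale, with a 95% interval of −0.02 to 1.55 by the normal approximation. It is a low gene, at 1.57 ± 0.19 CPM in het neurites and 1.02 ± 0.27 CPM in WT neurites, and at 1.37 ± 0.19 CPM in het soma and 1.56 ± 0.31 CPM in WT soma (SD, n = 3 each). For Rab31 and Rab27b, which passed whichever single library was left out, the log2 changes were 0.33 ± 0.10 in het and 0.31 ± 0.10 in WT, and −0.40 ± 0.17 in het and −0.65 ± 0.17 in WT.

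Ratios of related Rab mRNAs within a library do not depend on library scaling, and 23 pairs were compared between 6 neurite and 6 soma libraries. None passed after adjustment over the 23 pairs in a test that used neither genotype nor library number. The log2 ratio of Rab3c to Rab3d averaged 5.22 ± 0.22 in neurites and 5.58 ± 0.08 in soma (SD, n = 6 each), a difference of −0.36 (2-sided exact permutation p = 0.00866, adjusted p = 0.0664). That of Rab3a to Rab3d averaged −1.83 ± 0.25 in neurites and −1.38 ± 0.20 in soma (n = 6 each, exact permutation p = 0.00866, adjusted 0.0664). That of Rab6a to its neuronal relative Rab6b averaged −2.63 ± 0.15 in neurites and −2.87 ± 0.07 in soma (n = 6 each, exact permutation p = 0.00649, adjusted 0.0664). For Rab9 to Rab9b the difference was 0.47 (exact permutation p = 0.0152, adjusted 0.0871). In all 4 pairs the neurite and soma ranges overlapped. Between neurite and soma libraries with the same number, the ratio was lower in neurites in all 6 for Rab3c to Rab3d and Rab2a to Rab2b, and higher in all 6 for Rab6a to Rab6b and Rab9 to Rab9b. Exact sign flips of these 6 differences gave p = 0.0312 for each of the 4, the smallest they can give, and an adjusted p of 0.18.

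**Figure D4:**
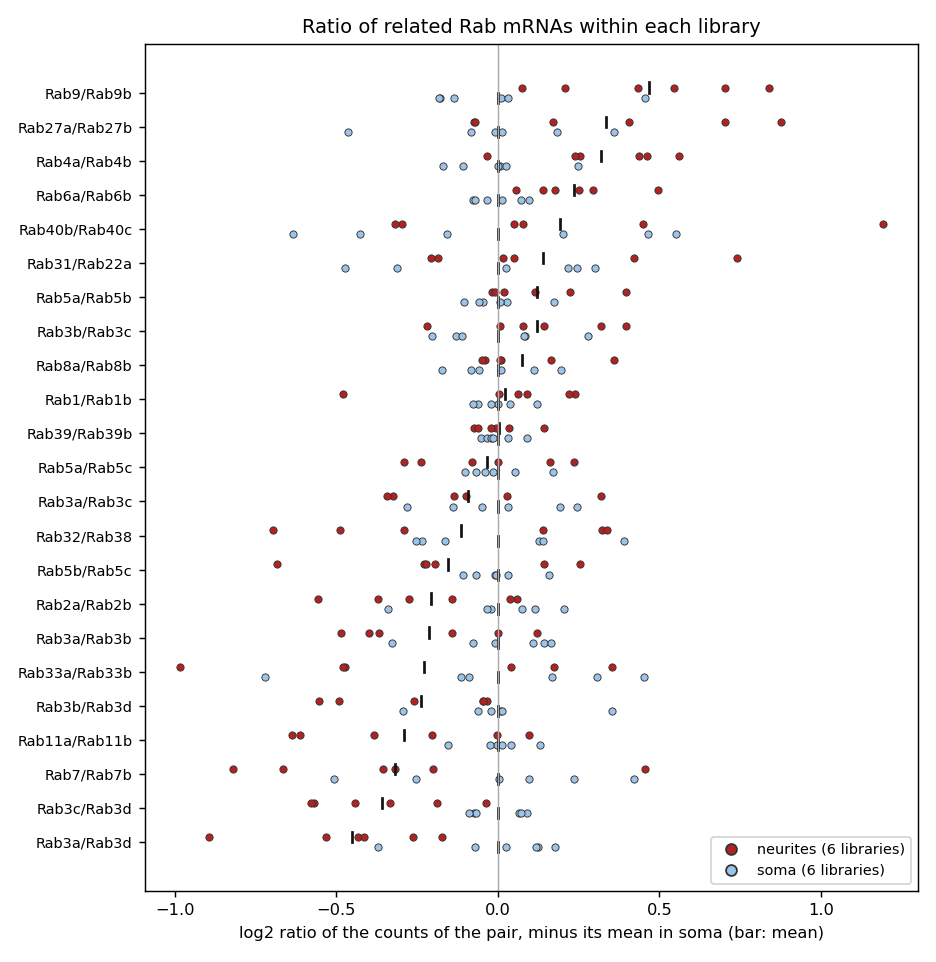
Log2 ratio of the counts of 23 pairs of related Rab mRNAs in 6 neurite and 6 soma libraries, minus the pair's mean in soma (points), with group means (bars). Rab9 to Rab9b has the highest mean difference, 0.47, and Rab3a to Rab3d the lowest, −0.45, and none passed after adjustment over 23 pairs.

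Between genotypes, 2 of 55 Rab mRNAs differed in neurites. Rab33a was higher in het and Rab31 was lower. This is 3.64% of the Rab genes, beside 3.27% of all genes, 0.494% higher and 2.78% lower in het. Rab33a, a Golgi Rab that in cultured rat hippocampal neurons works in membrane transport along the growing axon, had 32.5, 35.7 and 32.7 CPM in het neurites, against 17.1, 22.6 and 21.8 CPM in WT neurites. All het libraries were above all WT libraries. Rab33a rose by 0.71 ± 0.17 on the log2 scale, 1.64-fold (adjusted p = 0.0372, edgeR). Its relative Rab33b, known from autophagy and the Golgi, averaged 95.6 ± 6.51 CPM in het neurites and 103 ± 5.93 CPM in WT neurites. The log2 ratio of Rab33a to Rab33b was −1.51 ± 0.16 in het neurites and −2.34 ± 0.29 in WT neurites, and −1.39 ± 0.14 in het soma and −2.01 ± 0.36 in WT soma (SD, n = 3 each). No test was made on these ratios.

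Rab31, with its levels given above, was lower in every het library than in every WT library of the same compartment. In neurites it fell by 0.47 ± 0.10 on the log2 scale, 1.38-fold (adjusted p = 0.0296, edgeR). In soma its log2 change was −0.49 ± 0.10, with an adjusted p of 0.104. In the authors' deposited table, with a row per transcript, Rab31 had log2 changes of −0.45 in neurites (false discovery rate 0.0550) and −0.49 in soma (0.000447). Markers of several non-neuronal classes were lower in het neurites as well, with no member past the threshold in the other direction: 5 of 11 for satellite glia passed, 2 of 11 for Schwann cells and 4 of 8 for proliferation. Their median log2 changes were −0.64 for satellite glia, −0.69 for Schwann cells and −1.26 for proliferation. Fibroblast markers had a median of −0.68 with 0 of 9 past the threshold, endothelial and mural markers −0.20 and macrophage markers 0.30, with none past it. Neuron markers had 1 of 15 higher and none lower, with positive log2 changes in 14. The part of these markers in the Rab31 values was not tested.

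Besides Rab33a and Rab31, the smallest p-values in neurites belonged to Rab3c and Rab39b, higher in het, and to Rab7b and Rab20, lower. None of them passed. Rab3c had a log2 change of 0.43 ± 0.12 (adjusted p = 0.0589), and it had 585, 618 and 572 CPM in het neurites, against 409, 526 and 379 CPM in WT neurites. Rab39b, whose human form is mutated in an X-linked intellectual disability, had 165, 184 and 179 CPM in het neurites, against 116, 156 and 122 CPM in WT neurites, a log2 change of 0.42 ± 0.13 (adjusted p = 0.0791). Rab7b had −0.55 ± 0.18 (adjusted p = 0.112), and Rab20 had −0.53 ± 0.19 (adjusted p = 0.128), where het and WT overlapped. The authors' deposited table had 2 of 102 Rab transcripts under a false discovery rate of 0.05 in neurites, Rab33a at 0.74 and Rab3c at 0.47, beside 3.02% of all transcripts.

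By role, the median log2 change of het over WT in neurites was 0.28 for recycling Rabs, positive in 6 of 7, and 0.26 for Rabs of secretory vesicles and exocytosis, positive in 7 of 12. It was −0.14 for early endosomes, −0.04 for late endosomes and lysosomes and −0.01 for the ER and Golgi, beside 0.01 for all 55 Rabs and −0.01 for all genes. The 4 Rab3 forms had 0.47 (Rab3a), 0.35 (Rab3b), 0.43 (Rab3c) and 0.28 (Rab3d), none past the threshold. Rab3a averaged 4.50 ± 0.15 CPM in het neurites and 3.22 ± 0.60 CPM in WT neurites, and Rab3d 15.0 ± 1.55 CPM in het neurites and 12.3 ± 0.44 CPM in WT neurites (SD, n = 3 each), with no overlap. Neuron markers summed to 12514 to 16372 CPM in het neurites and 10884 to 14169 CPM in WT neurites. Their part in these values was not tested.

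The calls in neurites depended on single libraries. Rab31 kept its call in 8 of 12 fits that left out 1 library and Rab33a in 7. These 12 include fits that left out a soma library, which is outside this comparison. Among the fits that left out a neurite library, both calls stayed only without het neurites 1 or WT neurites 2. No Rab gene passed without het neurites 2, het neurites 3, WT neurites 1 or WT neurites 3, and 12 passed without WT neurites 2. The share of all genes that passed in these fits is not given here. Rab31 alone passed without het soma 1. With the neurite libraries fitted alone, 0 Rab genes passed, with adjusted p-values of 0.154 for Rab31 and 0.0879 for Rab33a.

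**Figure D5:**
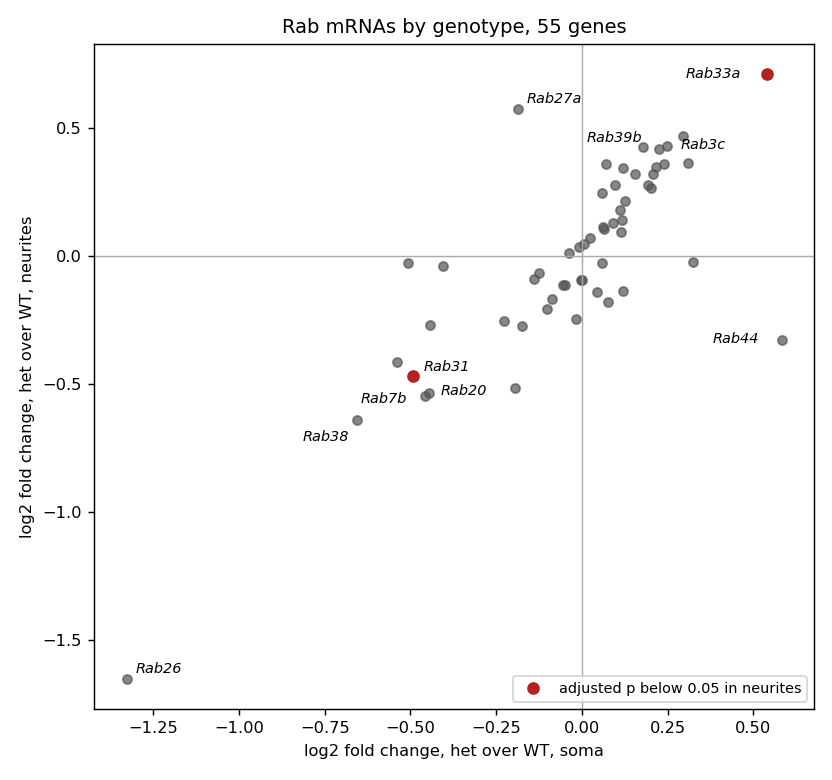
Log2 fold change of the 55 Rab mRNAs, het over WT, in soma (horizontal) and in neurites (vertical), with each point a gene. Rab33a (0.54 and 0.71) and Rab31 (−0.49 and −0.47) passed in neurites. Rab26, under 1 CPM, is the lowest point.

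In soma, 0 of 55 Rab mRNAs differed between het and WT, beside 0% of all genes by edgeR. At an unadjusted p under 0.05 there were 8 of 55 Rab genes, beside 9.16% of all genes. DESeq2 called 1 Rab gene, beside 315 of all 15990 genes, and voom called 0 of either. Besides Rab31, the smallest p-values belonged to Rab33a, with a log2 change of 0.54 ± 0.17 (adjusted p = 0.232), Rab32 at −0.44 ± 0.16 (0.353) and Rab34, a Rab of cilia and of lysosome position, at −0.54 ± 0.21 (0.387). Rab33a had 34.3, 41.5 and 33.0 CPM in het soma, against 17.8, 29.7 and 27.4 CPM in WT soma, with no overlap. Het and WT soma libraries with the same number deviated together, and with the replicate number as a block 2 Rab genes passed, beside 3.25% of all genes. These were Rab31 at −0.49 ± 0.10 and Rab33a at 0.56 ± 0.13 (log2, SE). In the authors' deposited table, 5 of 103 Rab transcripts passed in soma, beside 4.24% of all transcripts: Rab33a at 0.58 was higher in het, and Rab31 at −0.49, 1 transcript of Rab34 at −1.21, Rab38 at −0.64 and Rab7b at −0.44 were lower.

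Of the 55 Rab genes, 45 (81.8%) had genotype changes of the same sign in neurites and in soma, against 73.8% of all genes. Pearson's r of the log2 changes was 0.792 across the Rab genes and 0.561 across all genes, with Rab26, under 1 CPM, as the farthest Rab point. The points share cultures wherever neurites and soma came from the same animals, so this is a description.

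Among proteins that act on Rabs, the carriers had 1 of 7 genes past the threshold between neurites and soma, Rabac1, which binds prenylated Rabs at the Golgi. It averaged 264 ± 33.6 CPM in het neurites and 340 ± 11.3 CPM in het soma, and 211 ± 23.1 CPM in WT neurites and 299 ± 13.9 CPM in WT soma (SD, n = 3 each). The 7 carriers had 14.3% past the threshold, beside 12.2% of all genes. Rabac1 fell by 0.44 ± 0.08 on the log2 scale in neurites (adjusted p = 0.00277, edgeR). Exchange factors had 7.14% past the threshold, beside the same 12.2%, with 2 of 42 higher, Dennd2a by 0.55 and Dennd5a by 0.59 on the log2 scale, and 1 lower, Dennd6b, which fell by 0.51. GTPase-activating proteins had 4 of 40 higher and 1 lower, 12.5% in all and close to the 12.2%. Tbc1d15, which acts on Rab7, rose by 0.36 on the log2 scale, Tbc1d8b by 0.60 and Tbc1d9b by 0.58, and Tbc1d30 fell by 0.33.

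Effectors had 7 of 62 genes higher in neurites and 2 lower, 14.5% in all, beside 12.2% of all genes. The highest folds belonged to Sytl2, an effector of Rab27, at 2.27-fold, to Mlph, which links Rab27a to a myosin, at 2.23-fold, and to Fyco1, which links Rab7 vesicles to kinesin, at 2.12-fold. Sytl2 averaged 13.2 ± 3.38 CPM in het neurites and 5.12 ± 0.37 CPM in het soma, and 11.3 ± 4.37 CPM in WT neurites and 5.60 ± 1.28 CPM in WT soma. Mlph and Fyco1 are low genes. In the same order, Mlph averaged 4.90 ± 0.86, 2.15 ± 0.15, 6.48 ± 2.05 and 2.92 ± 1.17 CPM. Fyco1 averaged 2.30 ± 0.23, 1.31 ± 0.26, 3.39 ± 1.09 and 1.33 ± 0.54 CPM (SD, n = 3 each). Uso1, a tether that binds Rab1, rose by 0.37 on the log2 scale. Between genotypes in neurites, Dennd2a fell by 0.56, Tbc1d8b fell by 0.80 and Tbc1d30 rose by 0.39 on the log2 scale, and no carrier or effector passed.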

How the data were processed

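RNA from neurites and soma was sequenced after ribosomal RNA depletion as stranded libraries, per the labels' protocols. The submitters' processing notes name CASAVA 1.8.2, edgeR and mm10 (GRCm38). Which aligner and counter were used is not given in the sources used here. Raw counts per Ensembl transcript were deposited in a table per compartment, per the file headers. Each table also holds the authors' log2 fold change, p-value and false discovery rate for het against WT, per the file headers. The 24 remaining per-sample columns were not used. Transcripts without a gene name held 0.574% to 0.694% of counts.

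Counts were summed per gene name over transcripts in both tables (98 of the 107 Rab transcripts), filtered (filterByExpr) and TMM-scaled. A robust quasi-likelihood model was fitted over 12 libraries (edgeR 4.0.16 in R 4.3.3). P-values were 2-sided and adjusted by Benjamini-Hochberg over 15990 genes, threshold 0.05. SE is that of the log2 fold change, and CPM use TMM-scaled totals. Alternatives used DESeq2 1.42.0 and limma 3.58.1, and the code was tested on simulated data. Ratios of pairs (pseudocount 0.5) had exact permutation tests in scipy 1.17.1. A count of 3 is 0.0925 to 0.2 CPM of raw totals, the floor set by counting error only.

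Pairing was checked by correlating deviations from group means between same-numbered libraries. WT neurites and soma gave 0.575, 0.603 and 0.419, and het and WT soma gave 0.45, 0.551 and 0.212. For both, a fit with the number as a block was given beside the main fit. The main fit held no block, so its calls ignore any pairing. Het neurites and soma gave 0.194, 0.509 and −0.287, and het and WT neurites 0.44, 0.485 and −0.132. For these the block was run as an alternative only. WT neurites and het soma, which share neither genotype nor compartment, gave 0.317, 0.584 and 0.312. Het neurites and WT soma gave 0.218, 0.598 and 0.193. These correlations thus do not tell which libraries came from the same culture.

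Named genes were all Rab genes past the threshold, the 4 highest and 4 lowest compartment changes at 10 CPM or more, the 3 smallest p-values per direction between genotypes, the 6 highest levels per kilobase, their relatives, Rab13 and up to 4 regulators per list. Other genes are named for their role and were chosen after their values were seen. The members and all lists were chosen with earlier results of these data known.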

Additional observations from a re-analysis of the deposited data

How the results depend on the processing

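No Rab gene that passed, was among the highest or lowest compartment changes or had one of the smallest p-values between genotypes changed direction in that comparison under the alternatives run, and the other named genes were not followed one by one. Between neurites and soma, averaged over genotypes, 7 Rab genes passed; there were 6 with DESeq2's size factors, 7 with no filter, DESeq2 or voom, 12 with the replicate number shared by the 4 groups as a block, 11 with a block for the number within each genotype, 4 with each transcript alone, and 3 to 11 leaving out 1 library. In WT, 0 passed; there were 3 with DESeq2, 1 with voom, 5 with the number shared by the 4 groups and 4 with the number within a genotype, and 0 to 5 leaving out 1 library. Averaged over genotypes, Rab39, Rab39b and Rab32 passed with either block, Rab38 with the number within a genotype, and Rab8a and Rab20 with the number shared by the 4 groups. In het, 0 passed in every alternative. Between genotypes in neurites, 2 passed; there were 4 with DESeq2, 3 with voom, 9 with the number shared by the 4 groups as a block, 0 with the neurite libraries alone or all transcripts of the neurite table, and 0 to 12 leaving out 1 library. In soma, 0 passed; there were 1 with DESeq2, 2 with that block, 1 with the soma libraries alone, 1 with all transcripts of the soma table, and 0 in every fit leaving out 1 library. The interaction stayed at 0 in every alternative. Over all 15990 genes, averaged over genotypes, DESeq2 called 2663 and voom 1949. They called 1108 and 508 in WT, 1200 and 557 between genotypes in neurites, and 315 and 0 in soma. With a block, 9.31% of all genes passed in WT (number within a genotype) and 3.25% between genotypes in soma (number shared by the 4 groups). For the other alternatives the share over all genes is not given here, so their counts are not read as results about Rabs. The pairs of related Rabs stayed at 0 with sign flips within same-numbered libraries, an alternative chosen after seeing the data. The cause of the shifts between alternatives was not tested. Depth limits the genes under 1 CPM, Rab26, Rab42 and Rab44, and the counting of shared transcripts limits levels between genes.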
